A study of Mus musculus with 6 samples.

Results

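The S2-like cells of the mouse kidney described here are single-cell barcodes that carried transcripts of both Slc22a6, the basolateral organic anion transporter OAT1, and Slc34a1, the sodium-phosphate cotransporter of the brush border. A barcode was a member when it had at least 3000 UMIs (unique molecular identifiers, each standing for 1 captured transcript), at most 50% mitochondrial UMIs, at least 2 UMIs of each of these genes, and 0 UMIs of Slc5a2, Slc7a13, Slc22a30, Slc12a1, Ptprc and Havcr1. Those excluded genes stand for the S1 segment, the S3 segment (2 genes), the thick ascending limb, leukocytes and injured tubule. The rule found 640 members among 76774 barcodes, of which 43426 passed the limits on UMIs and mitochondrial share. The members were thus chosen by their measured UMIs of these 8 genes, whose levels were not tested.

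The libraries came from whole kidneys of male C57BL/6 mice, 3 sham and 3 DOCA-salt, with 1 library for each mouse. The mice were bought at an age of 8 to 10 weeks, before surgery and treatment. DOCA-salt mice lost the left kidney, and a week later received a 50 mg pellet of deoxycorticosterone acetate (DOCA, a mineralocorticoid) with 1% NaCl to drink for 21 days. Controls kept both kidneys after a sham operation and got neither DOCA nor salt, so the removal of a kidney cannot be told apart from the hormone and salt. Kidneys were minced and digested with collagenase II, and libraries were made with the 10x Genomics 3′ kit v3.1.

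The proximal tubule takes back most of the filtered sodium, phosphate, glucose, amino acids and protein, and secretes organic anions. Its middle segment, S2, is known for basolateral uptake of organic anions through OAT1 and OAT3, while S1 carries most glucose reabsorption and S3 expresses a separate set of transporters. Proximal tubule cells burn fatty acids and lactate, make glucose from lactate and glutamine, and in male mice express many androgen-dependent genes.

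Pck1 and Inmt are the genes whose sequence is shown, because one was the most abundant gene called higher and the other the most abundant called lower with all members. Each line gives the 250 bases before the start of the transcript that GENCODE vM39 marks as canonical, on GRCm39, the build the authors named. For Pck1 that start lies downstream of the first base of the gene as annotated, so the window overlaps the gene. Pck1 lies on chromosome 2 (gene at chr2:172994744-173001066, plus strand, window chr2:172994591-172994840), and Inmt on chromosome 6 (gene at chr6:55147606-55152028, minus strand, window chr6:55152029-55152278). Capitals mark matches to the letters searched on both strands.
Pck1: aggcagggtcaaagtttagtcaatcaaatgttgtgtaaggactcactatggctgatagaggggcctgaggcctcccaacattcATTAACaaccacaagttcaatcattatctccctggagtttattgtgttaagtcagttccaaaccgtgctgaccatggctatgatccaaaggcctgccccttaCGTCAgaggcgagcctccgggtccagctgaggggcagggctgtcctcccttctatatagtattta
Inmt: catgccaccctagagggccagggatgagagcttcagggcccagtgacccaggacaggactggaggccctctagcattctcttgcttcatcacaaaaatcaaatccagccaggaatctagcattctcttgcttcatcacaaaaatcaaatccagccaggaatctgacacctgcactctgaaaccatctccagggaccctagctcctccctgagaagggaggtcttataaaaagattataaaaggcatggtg
The window of Pck1 held the HNF1 half-site GTTAAT (on the opposite strand) and the CREB half-site TGACG (likewise), and that of Inmt held neither, nor AGAACA, the half-site of steroid receptors, nor the D-box TTATGNAA. GTTAAT was present in 5.34% of the 5485 windows of genes tested and TGACG in 25.5%. AGAACA was present in 10.9% and TTATGNAA in 2.08%. The windows were those of genes tested without the members that carried other markers, the 4 motifs were picked after values were seen, and these matches describe letters and not binding.

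The members numbered 138, 69 and 101 in the sham mice and 73, 144 and 115 in the DOCA-salt mice. They were 1.49% of the barcodes within the limits in sham and 1.44% in DOCA-salt mice on average. The members were few and shallow for their kind: of the barcodes with both markers, between 2.65% and 5.48% met the zero rules, and the median UMI count of members was 5968 to 7051, against 11073 to 14466 for all barcodes with both markers. Of the barcodes with both markers, Slc22a30 had UMIs in 64.6% to 82.1% and Slc5a2 in 39.7% to 68.4%, and Slc22a30 was the more frequent in each mouse but DOCA-salt 2. Slc7a13 had UMIs in 54.9% to 63.3% of them in sham and 24.7% to 48.5% in DOCA-salt mice, without overlap. The zero rule of Slc7a13 thus left out a larger share in sham mice, and its part in the results below was not tested. The median Slc22a6 count of members was 3 or 4 UMIs, and 24 to 54 members of each mouse stood at the minimum of 2. Just outside, 88 to 142 barcodes of each mouse had 1 UMI of one marker and met the other conditions, and 143 to 198 failed by a single UMI of an excluded gene. Pairs of libraries shared 33 to 69 barcode sequences, and none of these was a member in both libraries of a pair. The libraries held 93172739 to 137819127 UMIs, and the members' summed UMIs ranged from 480742 to 1323164.

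The markers that the rule did not use were set against S1-like and S3-like cells under the same limits. S1-like cells (3708 barcodes) had at least 2 UMIs of Slc5a2 and of Slc34a1 and 0 of Slc7a13, Slc22a30, Slc12a1, Ptprc and Havcr1, and S3-like cells (2823) had at least 2 UMIs of Slc7a13 and 0 of Slc5a2, Slc12a1, Ptprc and Havcr1. Levels are in CPM (UMIs per 1000000 of the summed UMIs of a mouse), and for these markers they describe the gates and were not tested. Slc22a8, which encodes OAT3, was at 293 ± 63.4 (SD, n = 6 mice) in S2-like, 252 ± 30.4 in S1-like and 258 ± 45.9 in S3-like cells, so these ranges overlapped. Within mice it was above S1-like cells in 5 of 6 and above S3-like cells in 5 of 6. Fbp1, fructose bisphosphatase of gluconeogenesis, was highest in S2-like cells (1147 ± 155) and was above S1-like cells in 6 of 6 mice and above S3-like cells in 6 of 6. The lactate and monocarboxylate cotransporter Slc5a12 of S1 was at 38.9 ± 21.6 in S2-like against 644 ± 102 in S1-like cells. Its S3 relative Slc5a8 was at 104 ± 54.8 in S2-like against 370 ± 49.8 in S3-like cells. Slco1a6 (148 ± 39.8), Slc17a3 (200 ± 35.9) and Cyp2e1 (262 ± 62.1) were all higher in S3-like than in S2-like cells, at 429 ± 26.8, 526 ± 50.8 and 452 ± 105, although they had been listed for S2.

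**Figure D1:**
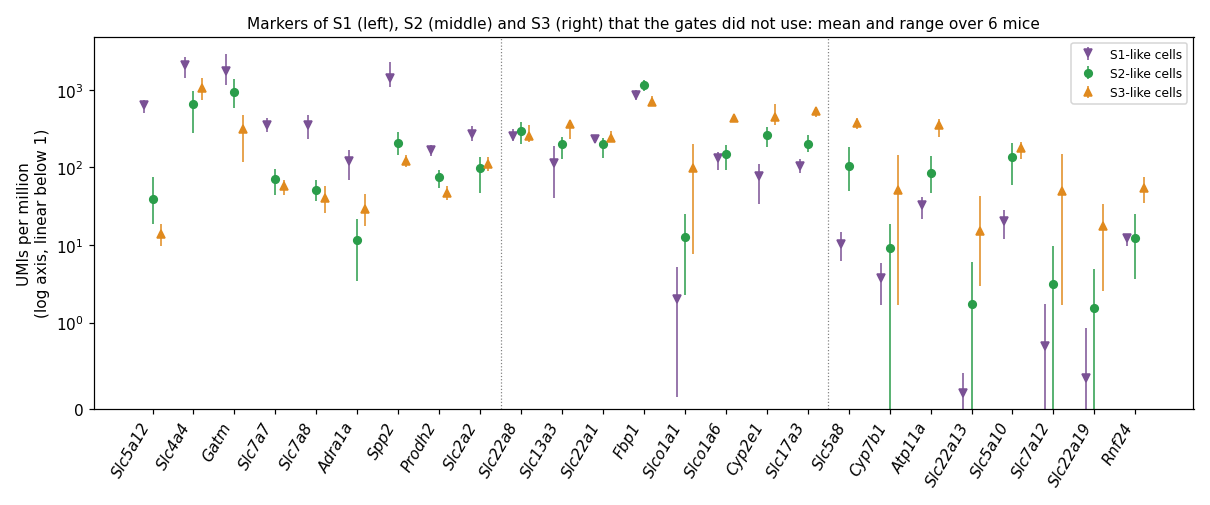
Summed level in CPM (log axis, linear below 1) of listed S1, S2 and S3 markers that the gates did not use, in S1-like, S2-like and S3-like cells; points are means over 6 mice and bars span the lowest to the highest mouse. Slc5a12 and Slc7a8 fall from S1-like to S2-like cells, while Slc5a8 and Atp11a are highest in S3-like cells.

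The label went against the data for part of the members. In 82 of the 640, a marker list of another cell type had 10 or more UMIs. In sham mice 57 of 308 members were of this kind and in DOCA-salt mice 25 of 332. By mouse they were 13.0%, 11.6% and 30.7% of members in sham and 1.37%, 10.4% and 7.83% in DOCA-salt. Their median share of UMIs in 9 common proximal tubule genes was 0.0955% to 1.21%, against 3.10% to 4.32% in the other members, although single marked members reached the level of the others (3.78% for a member with cycling markers in sham 2 and 3.19% for one with macrophage markers in DOCA-salt 2). Principal cells of the collecting duct marked 7, 4 and 9 sham members and 0, 2 and 1 DOCA-salt members. The summed level of 8 principal cell markers was accordingly 1003 to 1484 CPM in sham and 47.8 to 92.9 in DOCA-salt mice, and 40.9 to 94.4 against 48.5 to 58.0 once these members were left out. The main results are therefore given for all 640 members and for the remaining 558, a choice made after seeing the data.

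**Figure D2:**
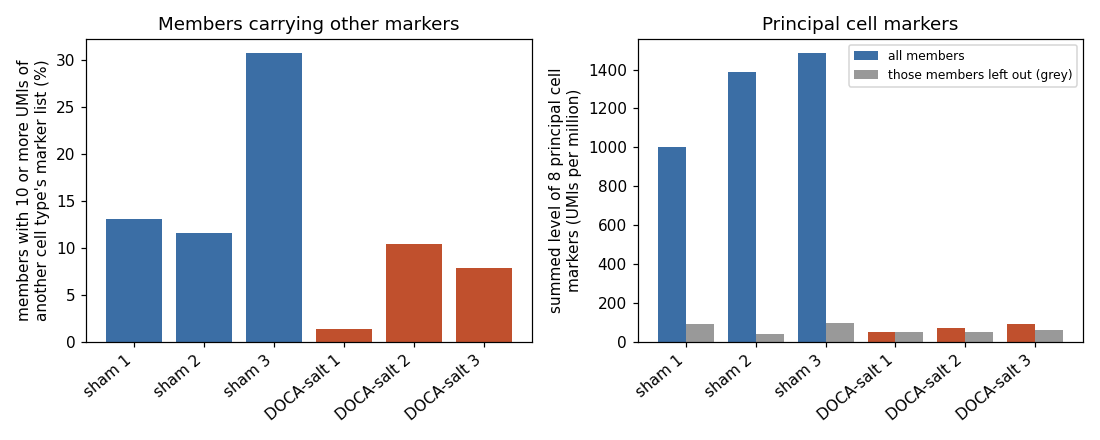
Left, percent of S2-like members in each mouse with 10 or more UMIs of a marker list of another cell type; right, summed level of 8 principal cell markers in CPM, with all members (blue sham, red DOCA-salt) and with those members left out (grey). The 3 sham mice stand at 1003 to 1484 with all members and at 40.9 to 94.4 without those members, and the DOCA-salt mice at 47.8 to 92.9 and 48.5 to 58.0.

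As a background for free RNA in the suspension, a set of genes picked after their values were seen was also measured in barcodes with 10 or more UMIs of endothelial markers and fewer than 10 of every other list (255 to 459 for each mouse, median 4870 to 6821 UMIs). None of the lists was for the proximal tubule, so barcodes that also held a proximal tubule cell were not left out. Thinned to 3000 UMIs, 56.0% to 79.0% of the endothelial barcodes in sham and 41.8% to 59.0% in DOCA-salt mice had a UMI of Slc34a1. Its level there was 982 to 1162 CPM in sham and 537 to 751 in DOCA-salt mice. That of Slc22a6 was 82.8 to 119 and 41.4 to 59.1, and neither gene overlapped between the groups. The part of this in which barcodes met the rule was not tested. Levels in endothelial barcodes of other genes measured are given below, and are a background only for genes that endothelial cells do not make. In bulk sums, fewer cells with a transcript and less of it in each cell cannot be told apart. Members also differed in mitochondrial share, with medians of 15.9% to 19.3% in sham and 22% to 28.7% in DOCA-salt mice.

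The question put to the S2-like cells was which genes differed between DOCA-salt and sham mice. With all 640 members 35 of 7501 genes passed an adjusted p of 0.05 (edgeR quasi-likelihood test on the sums of each mouse, Benjamini-Hochberg adjustment over all genes tested). Of these 14 were higher (0.187% of the genes tested) and 21 lower (0.28%). Without the members that carried other markers, 132 of 5566 genes were higher (2.37%) and 18 lower (0.323%). Of the 35 genes 15 were called again in that set, in which the other cells' markers were not tested. The groups' levels did not overlap for 420 genes higher (5.6%) and 703 lower (9.37%) with all members, and for 568 higher (10.2%) and 554 lower (9.95%) with 558. With libraries scaled by their totals alone, 5 were higher and 16 lower with all members. Leaving out 1 mouse gave 2 higher and 8 lower without sham 1, 3 and 5 without sham 3, 77 and 29 without DOCA-salt 1, 9 and 15 without DOCA-salt 2, 5 and 10 without DOCA-salt 3, and 14 and 27 without sham 2. In the 558 it gave from 15 higher and 4 lower without sham 1 to 210 and 86 without sham 2, with 197 and 28 without sham 3, 90 and 12 without DOCA-salt 1, 54 and 8 without DOCA-salt 2 and 40 and 6 without DOCA-salt 3. The p-values measure the spread between 3 mice and 3 mice, and the smallest p an exact permutation test allows at this size is 0.1.

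Collecting duct genes led the fall with all members. Aqp2, the vasopressin-regulated water channel of principal cells, was at 386, 379 and 543 CPM in sham and 6.24, 12.1 and 12.2 in DOCA-salt mice, a log2 change of -5.25 ± 0.31 (SE, adjusted p = 4.32e-06, edgeR). The groups did not overlap. Hsd11b2, the enzyme that keeps cortisol and corticosterone off the mineralocorticoid receptor, changed by -4.47 ± 0.40 (adjusted p = 0.00027, edgeR). Fxyd4, a subunit that modulates the sodium pump, changed by -3.69 ± 0.35 and the water channel Aqp3 by -3.14 ± 0.35. Of the 6 principal cell markers tested, 5 fell and none rose, with a median log2 change of -3.90 against -0.02 over all genes tested, of which 0.28% were lower and 0.187% higher. These 4 calls held whichever mouse was left out (highest adjusted p 0.0205). In the 558, where none of these 4 genes was tested, Aqp2 stood at 18.2, 6.46 and 26.1 in sham and 6.48, 14.6 and 11.6 in DOCA-salt mice, and the groups overlapped, as they did for Hsd11b2 and Fxyd4. Aqp3 was at 23.9, 15.1 and 24.1 in sham and 8.64, 10.7 and 11.6 in DOCA-salt mice there, without overlap. Endothelial barcodes of the same mice held Aqp2 at 5.98 to 22 in sham and 6.42 to 15.8 in DOCA-salt mice.

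In glucose handling Pck1 and Slc5a1 rose. Pck1, the rate-limiting enzyme of gluconeogenesis, was at 562, 568 and 610 CPM in sham and 2113, 1382 and 1601 in DOCA-salt mice. All DOCA-salt mice stood above all sham mice, and Pck1 rose by 1.65 ± 0.24 on the log2 scale (SE, adjusted p = 0.0118, edgeR). In the 558 members it rose from 783 ± 144 to 1884 ± 218 (SD, n = 3 mice each), or 1.31 ± 0.20 (adjusted p = 0.00141, edgeR). Pck1 in endothelial barcodes was 178 to 196 in sham and 219 to 237 in DOCA-salt mice. Slc5a1, the sodium-glucose cotransporter SGLT1 of the late proximal tubule, was at 7.18, 8.55 and 10.9 in sham and 35.4, 24.9 and 47.7 in DOCA-salt mice. Its rise was 2.08 ± 0.40 with all members (adjusted p = 0.0433, edgeR) and 1.75 ± 0.39 with 558 (adjusted p = 0.0187). With all members Pck1 did not pass without sham 1 or sham 3 (adjusted p up to 0.126, log2 changes of 1.40 to 1.82 over the mice left out), and Slc5a1 did not pass without sham 1, sham 2, sham 3 or DOCA-salt 3 (up to 0.28). In the 558 Pck1 passed whichever mouse was left out, and Slc5a1 did not pass without sham 1 or DOCA-salt 3 (up to 0.186). Slc5a1 in endothelial barcodes stayed at 3.14 to 7.41 over all mice. The list of glucose transport, gluconeogenesis and fructose use had 21 genes tested with all members, 2 called higher and 0 lower, with a median log2 change of 0.05, beside 0.187% higher and 0.28% lower over all genes tested.

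Carriers of lactate and ATP-Mg and an enzyme of lipid synthesis rose. Slc16a1, the monocarboxylate carrier MCT1, was at 9.87, 17.1 and 10.9 in sham and 37.4, 40.1 and 52.5 in DOCA-salt mice and rose by 1.90 ± 0.35 (adjusted p = 0.0342, edgeR). Endothelial barcodes held Slc16a1 at 11.5 to 22.1 and 19.6 to 23 CPM. Slc25a25, a calcium-sensitive carrier of ATP-Mg in the mitochondrial membrane, rose by 1.68 ± 0.28 with all members and by 2.00 ± 0.33 with 558. Mogat2, a monoacylglycerol acyltransferase that makes diacylglycerol, rose by 2.40 ± 0.40 and 2.34 ± 0.39. Mogat2 was at 3.42 to 7.28 in sham and 28 to 37.4 in DOCA-salt mice with all members, and at 1.57 to 5.56 and 1.99 to 5.80 in endothelial barcodes. With all members Slc16a1 did not pass without sham 1, sham 3, DOCA-salt 2 or DOCA-salt 3 (adjusted p up to 0.239), Slc25a25 not without sham 1, sham 3 or DOCA-salt 2 (up to 0.148) and Mogat2 not without sham 1, sham 3 or DOCA-salt 3 (up to 0.134). In the 558 Mogat2 passed whichever mouse was left out, while Slc16a1 (0.101) and Slc25a25 (0.0518) did not pass without sham 1. Of the 38 genes of fatty acid oxidation, 0 were called with all members (0.187% of all genes were higher) and 3 rose with 558 (2.37%): Pdk4, the kinase that slows pyruvate oxidation (1.90 ± 0.38), Ehhadh of the peroxisome (1.43 ± 0.34) and the acyl-CoA thioesterase Acot1 (0.97 ± 0.24). Each of these 3 lost its call without sham 1, DOCA-salt 1 or DOCA-salt 2, Pdk4 and Ehhadh also without sham 2 and Pdk4 without DOCA-salt 3, with adjusted p up to 0.191, 0.236 and 0.246. The list's median was 0.34 with all members and 0.23 with 558, against -0.02 and 0.00 over all genes tested. Etfb, its most abundant gene, was at 797 to 1104 in sham and 738 to 1046 in DOCA-salt mice.

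**Figure D3:**
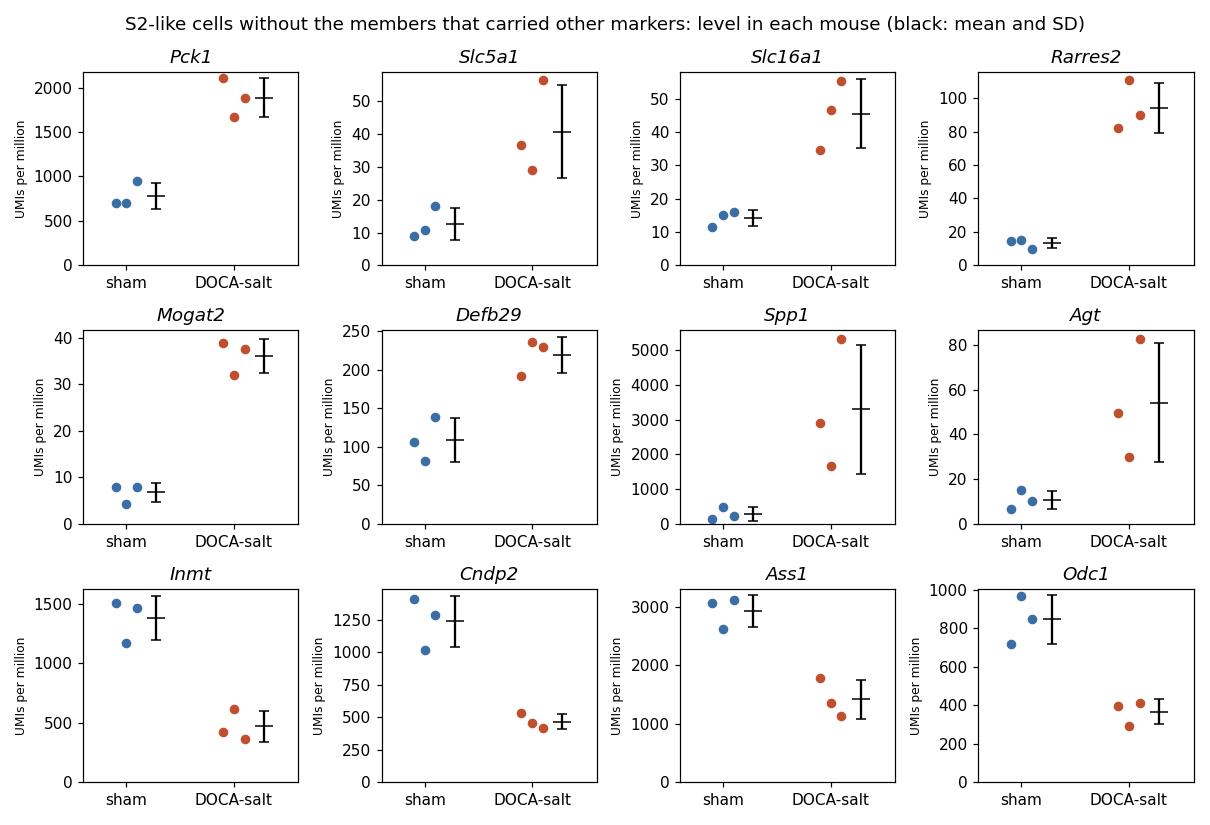
Level in CPM of 12 genes in S2-like cells without the members that carried other markers, 1 point for each mouse (3 sham in blue, 3 DOCA-salt in red), with the group mean and SD in black. Pck1, Slc5a1, Slc16a1, Rarres2, Mogat2, Defb29, Spp1 and Agt are higher in DOCA-salt mice and Inmt, Cndp2, Ass1 and Odc1 are lower. Groups do not overlap in any panel, which the naming rule itself asked of the largest rises and falls. Over all genes tested in this set they do not overlap for 568 higher (10.2%) and 554 lower (9.95%).

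Rarres2 gave the largest rise with all members among called genes at a mean of 20 CPM or more. Rarres2, which encodes the chemoattractant chemerin, was at 13.5, 13.7 and 6.07 CPM in sham and 79.0, 108 and 105 in DOCA-salt mice. It rose by 3.20 ± 0.33 with all members (adjusted p = 0.000571, edgeR) and by 2.83 ± 0.31 with 558 (adjusted p = 5.18e-05). Each cell thinned to 3000 UMIs, a Rarres2 UMI was found in 3.52% to 4.42% of the 558 in sham and in 15.9% to 20.8% in DOCA-salt mice (exact permutation p = 0.1), while endothelial barcodes held one in 0.176% to 1.14% and 1.04% to 2.60%. Rhobtb1, a protein with BTB domains, rose by 2.30 ± 0.37 and 2.18 ± 0.28. Defb29, a beta-defensin, rose by 1.28 ± 0.23 and 1.05 ± 0.23, and the receptor phosphatase Ptprd by 1.33 ± 0.24 and 1.41 ± 0.24. Defb29 in endothelial barcodes was at 15.2 to 25.7 in sham and 23.9 to 33.6 in DOCA-salt mice. Rarres2 passed whichever mouse was left out in both sets (highest adjusted p 0.0158 and 0.00138). The growth regulator Myc rose by 2.15 ± 0.40 and 2.45 ± 0.46, at 4.85 to 6.28 in sham and 20.8 to 27.0 in DOCA-salt mice with all members. Zeb2, a zinc finger repressor, rose by 1.88 ± 0.29 and 1.53 ± 0.31, and Pdzrn3, a ubiquitin ligase, by 1.38 ± 0.27 and 1.30 ± 0.29. With all members Rhobtb1 did not pass without sham 1 or sham 3 and Zeb2 not without sham 1 or DOCA-salt 3 (adjusted p up to 0.134 for both), and Defb29, Ptprd, Myc and Pdzrn3 passed when DOCA-salt 1 was left out and failed when any other mouse was (up to 0.15, 0.23, 0.183 and 0.299). In the 558 Rhobtb1 passed whichever mouse was left out. Without sham 1 Defb29, Ptprd, Myc, Zeb2 and Pdzrn3 did not pass there, nor did Defb29, Myc, Zeb2 and Pdzrn3 without DOCA-salt 2, Defb29 and Pdzrn3 without DOCA-salt 3, or Pdzrn3 without DOCA-salt 1 (adjusted p of all these up to 0.133).

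Lyz2, lysozyme of macrophages, was at 0 to 2.69 in sham and 12.2 to 31.7 in DOCA-salt mice and was called with all members (log2 change 3.70 ± 0.67), and was no longer called when any mouse but DOCA-salt 1 was left out (adjusted p up to 0.331). In the 558 Lyz2 was at 0 to 2.28 in sham and 14.5 to 15.5 in DOCA-salt mice, and endothelial barcodes held it at 0.926 to 2.10 and 9.63 to 16.6. The 10 macrophage markers summed to 17.1 to 47.3 in sham and 81.1 to 128 in DOCA-salt mice with all members, and no gene of the list was at 0 in every mouse. In the 558 they still summed to 2.15 to 26.1 in sham and 60.5 to 104 in DOCA-salt mice, without overlap, and their part in this and in the changes of Apoe, H2-Aa and Spp1 given below was not tested.

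Inmt and Slco1a1 fell with and without the marked members. Inmt, an indolethylamine N-methyltransferase, was at 1218, 947 and 955 CPM in sham and 412, 492 and 310 in DOCA-salt mice, with no overlap. Its log2 change was -1.29 ± 0.24 (SE, adjusted p = 0.0377, edgeR) with all members and -1.52 ± 0.22 with 558 (adjusted p = 0.000645). The background moved the same way, since Inmt in endothelial barcodes was 117 to 265 in sham and 27.1 to 38.0 in DOCA-salt mice, and its part in the result was not tested. In the 558 the level of Inmt was 1382 ± 183 in sham and 470 ± 130 in DOCA-salt mice (SD, n = 3 mice each). Slco1a1, an organic anion transporting polypeptide that androgens raise in male kidney, was at 25.1, 15.4 and 24.3 in sham and 6.24, 2.27 and 2.44 in DOCA-salt mice. Its log2 change was -2.71 ± 0.52 with all members (adjusted p = 0.0432, edgeR) and -2.84 ± 0.49 with 558 (adjusted p = 0.00302). With all members Inmt passed without sham 2 or DOCA-salt 1 only (adjusted p up to 0.239) and Slco1a1 without DOCA-salt 1 only (up to 0.404). In the 558 Inmt passed whichever mouse was left out, and Slco1a1 in the 5 of these fits in which it was tested (up to 0.0427). Slco1a1 in endothelial barcodes was at 7.78 to 18.5 in sham and 0 to 5.35 in DOCA-salt mice.

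In the 558 members Odc1, Acsm3, Ass1 and Cndp2 also fell. Odc1, ornithine decarboxylase of polyamine synthesis, was at 719, 969 and 847 CPM in sham and 395, 291 and 413 in DOCA-salt mice (log2 change -1.16 ± 0.21, adjusted p = 0.00425, edgeR). Odc1 in endothelial barcodes was 167 to 309 in sham and 171 to 206 in DOCA-salt mice. The medium-chain acyl-CoA synthetase Acsm3 changed by -1.43 ± 0.30 (adjusted p = 0.0136). Of 9 androgen-responsive genes tested 3 fell and 0 rose, with a median log2 change of -0.26 against 0.00 over all genes tested, of which 0.323% were lower. With all members 1 of 10 fell, and the list's median was 0.00. Kap, the androgen-regulated kidney protein and the most abundant transcript of these cells outside mitochondrial genes, was at 21161 to 25562 in sham and 18397 to 29931 in DOCA-salt mice with all members and overlapped, while endothelial barcodes held it at 3329 to 6330 and 1273 to 3652. Ass1, argininosuccinate synthase of arginine synthesis, was at 3059, 2622 and 3116 in sham and 1788, 1353 and 1131 in DOCA-salt mice (adjusted p = 0.012, edgeR), at means of 2933 ± 270 and 1424 ± 334 (SD, n = 3 mice each). Cndp2, a cytosolic dipeptidase, was at 1410, 1020 and 1285 in sham and 531, 458 and 415 in DOCA-salt mice (log2 change -1.37 ± 0.21, adjusted p = 0.00102, edgeR). Both were also lower in endothelial barcodes of DOCA-salt mice, at 148 to 179 against 340 to 512 in sham for Ass1 and 46.7 to 52.4 against 118 to 271 for Cndp2, and the part of this background in the result was not tested. Odc1 and Cndp2 passed in the 558 whichever mouse was left out (highest adjusted p 0.0427 and 0.0224), Acsm3 not without sham 1 or DOCA-salt 3 (0.14) and Ass1 not without sham 1, DOCA-salt 2 or DOCA-salt 3 (0.101). Odc1 and Acsm3 were not called with all members, at -0.88 ± 0.26 and -1.17 ± 0.34. Neither were Ass1 and Cndp2, where the changes were -0.69 ± 0.27 for Ass1 and -1.09 ± 0.26 for Cndp2.

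Hormone and injury lists gained calls once the marked members were left out. Sgk1, a kinase induced by corticosteroids, was at 28.5, 23.7 and 48.2 CPM in sham and 238, 130 and 125 in DOCA-salt mice. It rose by 2.32 ± 0.31 with 558 (adjusted p = 0.000387, edgeR), and with all members the log2 change was 1.75 ± 0.36 (adjusted p = 0.0697). Endothelial barcodes held far more Sgk1, at 410 to 657 in sham and 744 to 1041 in DOCA-salt mice, and its part in the result was not tested. Of the 18 genes of the corticosteroid receptor pathway tested 3 rose (Sgk1, Mertk and Dusp1) and 0 fell, beside 2.37% higher and 0.323% lower over all genes of that set. With every barcode thinned to 3000 UMIs before the rule and members with other markers left out, a set described further on, the log2 change of Sgk1 was 1.31 and was not called, and 0 of 21 genes of the list rose. Sgk1 passed in the 558 whichever mouse was left out (highest adjusted p 0.0144). Dusp1 did not pass without sham 1, DOCA-salt 1 or DOCA-salt 3 (up to 0.112), and Mertk passed without sham 3 only (up to 0.346). Tsc22d3, the glucocorticoid-induced leucine zipper, was at 38.8 to 55.8 in sham and 34.8 to 65.0 in DOCA-salt mice. The mineralocorticoid receptor Nr3c2 was at 1.14 to 4.31 in sham and 4.32 to 17.4 in DOCA-salt mice, too low to be tested in that set. With all members Nr3c2 was at 60.1 to 109 in sham and 16.6 to 66.5 in DOCA-salt mice, and the glucocorticoid receptor Nr3c1 was at 65.0 to 94.6 and 52.0 to 89.2, and neither passed.

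Spp1, osteopontin, a secreted phosphoprotein that injured tubules make, was at 135, 499 and 221 in sham and 2898, 1678 and 5314 in DOCA-salt mice in the 558 members. The log2 change was 3.61 ± 0.65 (adjusted p = 0.0471, edgeR), and 2.30 ± 0.56 (adjusted p = 0.212) with all members. Spp1 in endothelial barcodes was 141 to 238 in sham and 647 to 1393 in DOCA-salt mice, and 53.4% to 86.8% of those barcodes in DOCA-salt mice had a UMI at 3000 UMIs, against 91.9% to 98.0% of S2-like cells. Of 19 injury and repair genes tested 4 rose and 0 fell, with a median log2 change of 0.68 against 0.00 over all genes tested, of which 2.37% were higher. The others were Mgp, a matrix inhibitor of calcification (4.46 ± 0.56), Myc, and Dcdc2a of the cilium (1.81 ± 0.43). The 10 fibroblast and pericyte markers, of cells that also make Mgp, summed to 10.2 to 14.1 CPM in sham and 23.8 to 33.4 in DOCA-salt mice in the 558, without overlap and with Pdgfra and Postn at 0 in every mouse, and their part in the result was not tested. Leaving out 1 mouse, Spp1 passed without DOCA-salt 2 only (adjusted p up to 0.208), Mgp whichever mouse was left out (up to 0.00399), and Dcdc2a not without sham 1, at 0.247, with 4 of 6 such fits testing it. Mgp in endothelial barcodes was 204 to 299 in sham and 55.0 to 225 in DOCA-salt mice, beside 0 to 2.28 and 23.8 to 46.4 in the 558 S2-like cells. Thinned to 3000 UMIs, a UMI of Mgp was found in 0% to 1.08% of the 558 in sham and 7.10% to 13.7% in DOCA-salt mice (exact permutation p = 0.1), and in 6.87% to 10.7% and 13.5% to 19.4% of endothelial barcodes, and its part in the result was not tested. Havcr1, the injury marker KIM-1, was at 0 by the rule, and 0.159% to 0.503% of barcodes with both markers carried it in sham against 3.49% to 5.57% in DOCA-salt mice. Krt8 of the intermediate filaments was at 95.7 to 292 in sham and 106 to 183 in DOCA-salt mice with all members. Vcam1, the adhesion molecule, was at 0 to 52.2 in sham and 0 to 30.5 in DOCA-salt mice in the 558. With all members Lcn2 was at 2.08 to 30.5 over the 6 mice, Ccl2 at 0 to 18.3, Fn1 at 0 to 58.7 and Il6 at 0 to 4.89.

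Among transport genes, organic ion transporters held the most calls. Of 24 organic ion transporters tested in the 558 members 5 rose and 1 fell: Slc16a9 (1.31 ± 0.33), Slc22a23 (1.14 ± 0.29), the carnitine transporter Slc22a5 (1.12 ± 0.23), the apical exporter Abcc2 (0.95 ± 0.22), the sulphate transporter Slc13a1 (0.88 ± 0.21) and Slco1a1, beside 2.37% higher and 0.323% lower over all genes tested. The calls of the 5 that rose were each lost without sham 1 and at least 1 other mouse (adjusted p up to 0.246), and with all members only Slco1a1 of 24 was called. Of 7 phosphate genes tested in the 558, 0 were called, and the scaffold Pdzk1, the most abundant outside the rule, was at 588 to 750 in sham and 430 to 585 in DOCA-salt mice. Of 19 amino acid transport genes and of 13 endocytosis genes 0 were called, with medians of 0.52 and 0.15. The endocytic receptor Lrp2 (megalin) was at 371 to 803 in sham and 688 to 930 in DOCA-salt mice with all members. Of 21 sodium, bicarbonate and water transport genes 2 rose, the potassium channel subunit Kcnj16 (0.90 ± 0.23) and Slc5a8 (1.12 ± 0.26), and neither was called with all members. Leaving out 1 mouse, Kcnj16 passed without sham 2 only (adjusted p up to 0.151) and Slc5a8 did not pass without sham 1, DOCA-salt 1 or DOCA-salt 3 (up to 0.23). Fxyd2, the sodium pump subunit and the most abundant of that list, was at 6434 to 7565 in sham and 4854 to 7162 in DOCA-salt mice with all members.

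In the 558 members 1 of 14 renin-angiotensin and peptidase genes and 1 of 12 stress genes rose, and of 11 clock genes 1 rose and 1 fell, beside 2.37% higher and 0.323% lower over all genes tested. Agt, angiotensinogen, was at 6.83, 15.1 and 10.0 CPM in sham and 49.7, 30.1 and 82.7 in DOCA-salt mice and rose by 2.43 ± 0.44 (adjusted p = 0.00425, edgeR), while endothelial barcodes held it at 2.62 to 5.56 and 7.98 to 12.8. With all members the log2 change of Agt was 1.64 ± 0.37 (adjusted p = 0.0779). Hspa5, the chaperone BiP of the endoplasmic reticulum, rose by 1.10 ± 0.26 in the 558, at 158, 200 and 307 in sham and 402, 350 and 619 in DOCA-salt mice. Ucp2, an uncoupling protein of mitochondria, rose by 2.14 ± 0.34, apolipoprotein Apoe by 1.58 ± 0.33 and the ectonucleotidase Nt5e, which makes adenosine, by 1.63 ± 0.35. Apoe in endothelial barcodes was at 254 to 490 in sham and 451 to 579 in DOCA-salt mice, above most S2-like levels. The circadian output factor Dbp changed by -1.73 ± 0.45 (adjusted p = 0.0471, edgeR) and the repressor Nfil3 by 1.66 ± 0.36. The MHC class II chain H2-Aa rose by 2.10 ± 0.47, from 6.02 to 19.4 in sham to 19.4 to 74.0 in DOCA-salt mice, beside endothelial levels of 38.8 to 65.3 and 48.5 to 76.5. Panx1, the ATP release channel, had UMIs in 1 sham mouse only with all members (1.71 CPM) and none in the 558, and P2rx7, the ATP-gated channel of leukocytes, was at 0 to 4.89 CPM over the mice with all members. P2rx4 was at 13.3 to 32.5 in sham and 18.3 to 23.4 in DOCA-salt mice and overlapped. Nox4, the NADPH oxidase of tubules, was at 92.4 to 159 in sham and 153 to 248 in DOCA-salt mice with all members (adjusted p = 0.32). Of 20 dissociation genes 3 rose in the 558 (Btg2, Fos and Dusp1, beside 2.37% over all genes), whereas with all members Fos was at 544 to 1030 in sham and 393 to 675 in DOCA-salt mice. Malat1, a nuclear RNA, rose by 0.89 ± 0.24 in the 558. Leaving out 1 mouse in the 558, Ucp2 passed in every fit (highest adjusted p 0.0224), and Agt in all but that without sham 1 (0.0877). Over the 21 alternatives to the fit with all members, however, Ucp2 was called in 4, with log2 changes from 0.14 to 2.14. Hspa5, Apoe, Nt5e, Nfil3, Dbp, H2-Aa, Btg2, Fos and Malat1 did not pass without sham 1, and all of these but H2-Aa lost their call without at least 1 other mouse too (highest adjusted p from 0.106 for Btg2 to 0.33 for Malat1).

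Another choice of members, also made after seeing the data, ended some of these calls and held others. The rule was applied to every barcode after thinning to 3000 UMIs, so that depth did not decide who passed the zero rules. Members with other markers were left out, which gave 1309 members. The zero rules held for the thinned UMIs only. At full depth these members could carry UMIs of excluded genes such as Slc5a2, Slc7a13 and Slc22a30. The set may therefore include more cells of S1 or S3 kind, and their part in the calls below was not tested. In that set 269 of 9689 genes were higher (2.78%) and 117 lower (1.21%). Rarres2 (2.21), Mogat2 (1.28), Rhobtb1 (1.26), Pck1 (1.04), Defb29 (0.99), Ptprd (0.91), Slc25a25 (0.91), Slc5a1 (0.88) and Slc16a1 (0.86) kept their calls at smaller log2 changes. Slco1a1 (-3.12), Inmt (-1.91), Cndp2 (-1.56), Acsm3 (-1.47), Odc1 (-1.26) and Ass1 (-1.03) kept theirs, as did Spp1 (3.94), Agt (2.04), Ucp2 (1.88), Apoe (1.86) and Hspa5 (1.11). Sgk1 (1.31), Nt5e (0.77), Myc (0.72), Pdzrn3 (0.48), Kcnj16 (0.41), Slc5a8 (0.41), Malat1 (0.26), Fos (0.24), Slc22a5 (0.11) and Abcc2 (-0.06) were not called. Lonrf3, a ring-finger protein, was at 2.22 ± 0.39 in the 558 and -0.23 here, and Fnip2, a folliculin partner, at 1.06 ± 0.25 and -0.29. In this set 6 androgen-responsive genes fell and 1 rose of 11, with a median log2 change of -0.68. The added falls were Cyp4a12a, Cyp4b1 and Cyp2j13, cytochrome P450 enzymes of male kidney, and the rise was Timd2, named here after their values were seen. Of 21 corticosteroid pathway genes 0 rose and 1 fell (Klf15, likewise), and of 22 dissociation genes 0 were called, so the calls of Sgk1, Mertk, Dusp1, Btg2 and Fos were not found in this set. Of 36 injury genes 12 rose and 0 fell, with a median log2 change of 0.72.

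**Figure D4:**
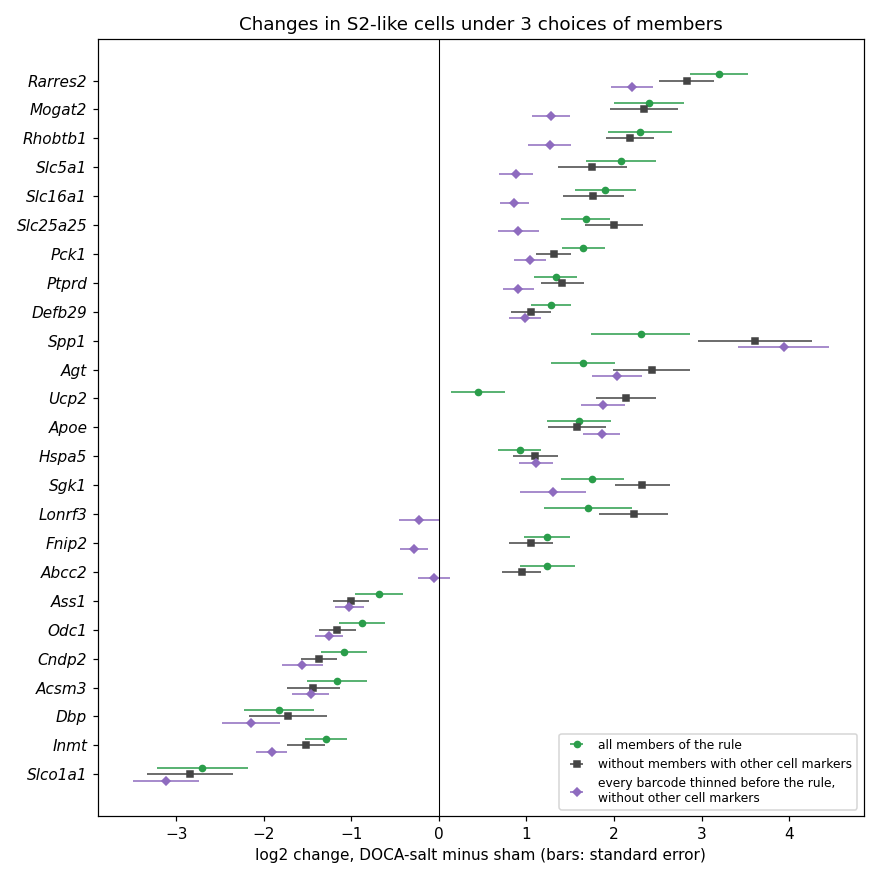
Log2 change (DOCA-salt minus sham) with its standard error of 25 genes under 3 choices of S2-like members, from 3 mice against 3. Pck1, Rarres2, Inmt and Slco1a1 keep their sides under each choice, while Lonrf3, Fnip2 and Abcc2 are above 0 with the members of the rule and near or below 0 when every barcode is thinned first.

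The change in S2-like cells was set against that in S1-like and S3-like cells of the same mice by taking the difference between segments within each mouse and comparing it between DOCA-salt and sham mice. In the segments themselves 48 of 12778 genes were higher (0.376%) and 11 lower (0.0861%) in S1-like cells, and 520 of 11996 higher (4.33%) and 168 lower (1.4%) in S3-like cells. With all members 22 of 12034 genes differed from S1-like cells, with a signed log2 change that was higher in S2-like cells for 15 (0.125%) and lower for 7 (0.0582%), and for 10 and 8 with libraries scaled by their totals alone. Against S3-like cells the signed change was higher for 1 of 10808 (0.00925%) and lower for 18 (0.167%), and for 0 and 2 with libraries scaled by their totals alone. Without the barcodes that carried other markers the counts were 132 of 10513 (1.19% higher and 0.0666% lower) and 41 of 9630 (0.322% and 0.104%). Rarres2 was a rise that S2-like cells had beyond S1-like cells: it changed by 2.83 in S2-like cells, 0.71 in S1-like and 1.96 in S3-like cells, a difference from S1-like cells of 2.13 ± 0.35 (adjusted p = 9.68e-05, edgeR). Its difference from S3-like cells did not pass (adjusted p = 0.46). Odc1 fell in S2-like and S3-like cells (-1.16 and -1.54) and was at -0.16 in S1-like cells, a difference of -1.07 ± 0.15 from S1-like cells (adjusted p = 8.4e-06). Npm3, a nucleoplasmin, changed by -1.51 in S2-like cells and -0.54 in S1-like cells, a difference of -1.03 ± 0.28. Aadat, an aminotransferase of kynurenine and lysine breakdown, changed by -0.90 in S2-like and 0.82 in S3-like cells, a difference of -1.83 ± 0.27 (adjusted p = 0.000546). The S1 marker Gatm, which makes the precursor of creatine, changed by -0.01 in S2-like and 0.85 in S3-like cells. Pck1 changed by 1.31, 1.18 and 0.88 in S2-like, S1-like and S3-like cells, and Inmt by -1.52, -2.21 and -1.91, with no difference past the threshold for either. A difference that did not pass does not show equal changes. In simulated sums of all members, 12% of 2-fold differences from S1-like cells and 8% of those from S3-like cells were recovered. Lonrf3 (2.22 in S2-like and -0.99 in S1-like cells) and Fnip2 (1.06 and -0.72) differed from S1-like cells by 3.21 ± 0.28 and 1.69 ± 0.21 here, but their changes were not above 0 with every barcode thinned first. Leaving out 1 mouse, with all members, gave 20 to 66 genes that differed from S1-like cells, the most without sham 3 and 41 without DOCA-salt 1 or DOCA-salt 2, and 3 to 47 that differed from S3-like cells, the fewest without DOCA-salt 2, 12 without sham 1 and the most without sham 2.

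**Figure D5:**
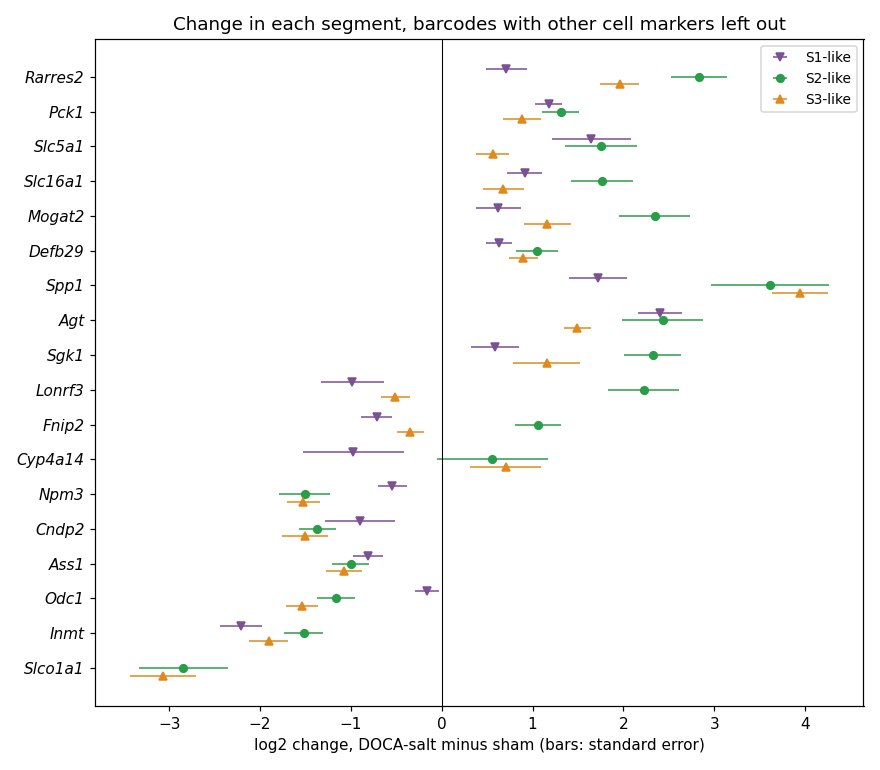
Log2 change (DOCA-salt minus sham) with its standard error of 18 genes in S1-like, S2-like and S3-like cells of the same 6 mice, with barcodes that carried other markers left out; Slco1a1 was too low to be fitted in S1-like cells. Pck1 and Agt are above 0 and Inmt and Ass1 below 0 in each segment, and Lonrf3 and Fnip2 are above 0 in S2-like cells only.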

How the data were processed

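Single-cell 3′ libraries of 6 mouse kidneys were read from the matrices the authors deposited, which hold counts of UMIs for each gene and barcode. Per the labels the authors aligned reads with Cell Ranger 9.0.0 to GRCm39 and worked in Seurat 4.0.0 under R 4.0.3, while the file headers name Cell Ranger 8.0.1, and the annotation release is not given in the sources used here. The deposited counts were already limited to barcodes called as cells, and free RNA was not removed. No barcode was removed as a doublet in the results reported first, and leaving out barcodes with the highest doublet scores (a share that grew with the number of barcodes, scanpy 1.11.5) was an alternative.

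UMIs of the members were summed for each mouse and tested with edgeR 4.0.16 in R 4.3.3 (low counts filtered, TMM scaling, robust quasi-likelihood fit, Benjamini-Hochberg adjustment, threshold 0.05). The 8 genes of the rule counted in the library sizes and were not tested. Differences between segments were tested in a model with each mouse as a block. DESeq2 1.42.0 and limma 3.58.1 served as alternatives, and exact tests used scipy 1.17.1 in Python 3.11.15. On simulated sums of S2-like cells, 21.9% of genes changed by 2-fold and 92.7% of those changed by 4-fold were recovered.

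The members and lists were chosen with earlier results of these data known. Named genes were up to 12 rises and 12 falls at a mean of 20 CPM (UMIs per 1000000) without overlap, up to 5 called genes of each list at 5 CPM and its most abundant gene, 4 differences each way against each segment, the 10 most abundant genes, and 19 genes the study measured. Some genes that this rule named are not reported here. This rule was applied to all members and, after results were seen, to those without other markers. That set, the thinned set, the motifs and the endothelial comparison were chosen after results were seen. For S2-like cells 21 alternatives to the fit with all members were run. The set without other markers was also fitted again with each mouse left out in turn. Nothing in the labels says that kidneys were pooled.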

Additional observations from a re-analysis of the deposited data

Results flagged for a closer look

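The difference of the DOCA-salt change between S2-like cells and another segment passed the test for 22 genes against S1-like cells and 19 against S3-like cells with all members (edgeR, each mouse as a block, adjusted p below 0.05), and the 13 that the naming rule selected are given here. The signed log2 change was higher in S2-like than in S1-like cells for Lonrf3 (by 2.56), Rarres2 (2.18), Fnip2 (1.73) and the fatty acid hydroxylase Cyp4a14 (1.61). Without members that carried other markers these differences were 3.21, 2.13, 1.69 and 1.47, and all 4 passed again. Of the 4, only Rarres2 was called in S2-like cells themselves with all members (adjusted p of 0.256 for Lonrf3, 0.0697 for Fnip2 and 0.879 for Cyp4a14, edgeR). With every barcode thinned before the rule and other markers left out, the S2-like change was -0.23 for Lonrf3 and -0.29 for Fnip2. The signed log2 change was more negative in S2-like cells for the urea transporter Slc14a2 (-7.47 against -2.48 in S1-like cells, fitted difference -5.28), for Gstm2 (-3.86 against -1.37, difference -2.67) and for Cdkl1 (-1.75 against -0.20, difference -1.57). The cytokine Il34 stood at -1.63 in S2-like and 0.93 in S1-like cells (difference -2.63). Without the marked members Il34 had a difference of -2.93 and Cdkl1 of -0.70 with an adjusted p of 0.29, and Slc14a2 and Gstm2 were not tested.

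Against S3-like cells the difference of Fnip2 was 1.57, with log2 changes of 1.23 in S2-like and -0.32 in S3-like cells. For the other 4 genes the log2 change with all members was below 0 in S2-like and above 0 in S3-like cells. Cp was at -0.59 and 1.96 (difference -2.64), Hoxb9 at -1.50 and 1.01 (-2.52), Npnt at -1.19 and 1.27 (-2.41) and Akr1c19 at -0.72 and 1.6 (-2.25). Their direction in S2-like cells depended on the setting, since the highest change under the alternatives was 2.14 for Cp, 1.00 for Hoxb9, 1.12 for Npnt and 1.26 for Akr1c19. Without the marked members the differences of Fnip2 (1.34) and Akr1c19 (-1.90) passed, and those of Cp (-1.35), Hoxb9 (-0.83) and Npnt (-1.08) did not. No group of mice was large enough for a test of single mice that stand apart.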

How the results depend on the processing

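Counts of genes higher and lower in S2-like cells (14 and 21 with all members, where 667 of the 7501 genes tested had an unadjusted p below 0.05) were 5 and 16 with library size only, 235 and 149 with no filter on low counts, 22 and 15 at 20% or less mitochondrial UMIs, 21 and 16 without doublet scores, 227 and 80 thinned before the gate, 117 and 17 at 4 or more UMIs of each marker, 183 and 52 with up to 2 UMIs of Slc7a13 and Slc22a30, 132 and 18 without other cell markers, 269 and 117 thinned and without them, 56 and 40 by DESeq2, and 4 and 12 with each cell weighted equally. At 5000 or more UMIs they were 13 and 14. Leaving out 1 mouse gave 2 to 77 higher and 5 to 29 lower, fewest without sham 1 and sham 3 and most without DOCA-salt 1. The replicate block gave 5 higher and 13 lower, 12 of them shared with the fit without it. Deviations of equally numbered mice correlated at 0.03, -0.41 and 0.30 over 7503 genes. With 3 mice in a group these values cannot show whether equally numbered mice were processed together, and the labels do not say.

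Genes that differed from S1-like cells (22) numbered 150 with no filter, 40 at 5000 UMIs, 13 without doublet scores, 277 thinned, 234 at 4 UMIs of each marker, 431 with up to 2 UMIs, 132 without other cell markers, 387 thinned and without them, 31 or 18 under other scalings, and 20 to 66 without 1 mouse. Those that differed from S3-like cells (19) numbered 2 with library size only, 149 with no filter, 31 without doublet scores, 70 thinned, 44 at 4 UMIs, 120 with up to 2 UMIs, 41 without other cell markers, 60 thinned and without them, and 3 to 47 without 1 mouse. The members' share of barcodes in sham and DOCA-salt mice (1.49% and 1.44%) was 3.09% and 3.21% thinned, 0.496% and 0.638% at 4 UMIs, 4.67% and 4.21% with up to 2 UMIs, 1.59% and 1.09% at 20% or less mitochondrial UMIs, 2.87% and 3.08% thinned and without other markers, and 1.33% to 1.67% and 1.28% to 1.69% without 1 mouse.

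Of 27 named genes called with all members, 361 of 515 values under the alternatives kept call and direction, 154 kept the direction alone and 0 turned. Of 104 not called, 240 of 2128 values gained a call in the same direction, and 176 changed sign, 8 of them with a call. Log2 changes turned from below 0 to a call above it for Akr1c19 (1.14 thinned, 1.26 thinned and without other markers), Btg2 (2.12 at 4 UMIs, 1.49 without other markers), Cp (2.14 thinned and without other markers), Fos (1.28 without other markers) and Npnt (0.92 thinned, 1.12 thinned and without other markers). The cause was not tested. In simulated sums of all members 21.9% of the genes changed by 2-fold were recovered, and the set without other markers, with 61 to 129 members a mouse, was not simulated.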

Other observations

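In the set thinned before the rule and without other cell markers, lists not described above also held calls, with genes named after their values were seen. Of 17 complement, MHC and interferon genes 8 rose (Cfi, Cd74, H2-Aa, H2-Ab1, H2-Eb1, Ifi27, B2m and H2-D1) and 0 fell, with a median log2 change of 1.04, beside 2.78% higher and 1.21% lower over all genes of that set. The 10 macrophage markers summed there to 38.8 to 62.7 CPM in sham and 87.1 to 90.4 in DOCA-salt mice. H2-Aa was at 38.8 to 65.3 CPM in endothelial barcodes of sham and 48.5 to 76.5 in those of DOCA-salt mice, and Cd74 at 52.7 to 167 and 83.5 to 155, and the part of either in the result was not tested. Of 17 clock genes 4 fell (Dbp, Ciart, Nr1d1 and Nr1d2) and 1 rose (Npas2), with a median of -0.11.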
